A study of Mus musculus with 32 samples.

Results

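The nuclear genes for the mitochondrial respiratory chain were followed through liver regrowth in mice with and without deletion of Rps6, which encodes a protein of the small ribosomal subunit. Members were genes whose symbol began with Nduf, Uqcr, Atp5 or Cox4 to Cox8, or was Sdha, Sdhb, Sdhc or Sdhd, and which had a probe set (a group of short oligonucleotides on the array) annotated to 1 gene only. The probe set with the highest mean over the 32 arrays stood for each gene. This gave 71 members of the 8251 genes named on the array, from 98 probe sets. Complex I had 31 members, complex II 4, complex III 7, complex IV 15 and complex V 14. Ndufaf1 and Ndufaf4, which help to assemble complex I, Ndufab1, which is also the mitochondrial acyl carrier protein, and Cox7a2l, which links complexes into supercomplexes, came in by their symbols.

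The respiratory chain lies in the inner mitochondrial membrane. Complex I takes electrons from NADH and complex II takes them from succinate, and both pass them through ubiquinone to complex III. Cytochrome c carries them on to complex IV, which reduces oxygen, and complex V uses the resulting proton gradient to make ATP. Most subunits are encoded in the nucleus and imported, while a few catalytic ones are encoded in mitochondrial DNA. Liver is rich in mitochondria, and hepatocytes that regrow after surgery keep up ATP, urea and glucose production while they divide. None of the mitochondrial DNA genes had a probe set (0 of 13).

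The 32 livers came from male C57BL/6 mice that were 3 months old and homozygous for a floxed Rps6 allele, in mice without (Cre minus, 16 livers) and with (Cre plus, 16 livers) the mx-cre transgene. The Mx promoter that drives Cre responds to interferon, and deletion was induced with poly I:C, a double-stranded RNA that raises interferon. It acts in any cell that responds to interferon, not in hepatocytes alone. Sampling was at 0, 20, 30 and 40 h after partial hepatectomy, the removal of part of the liver. The 8 groups of genotype and time held 4 livers each, apart from 3 Cre plus livers at 30 h and 5 of them at 40 h. No sham-operated group was named, so a difference from 0 h holds surgery and time together. The labels leave unsaid whether every liver is from a different mouse, and p-values therefore cover the spread between samples, part of which may be technical. The sources used here do not give the timing of poly I:C or say whether Cre minus mice received it.

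The Rps6 probe set, which shares its annotation with the pseudogene Rps6-ps4, read between 10.99 and 11.82 on the log2 scale in all Cre minus livers. It read between 6.24 and 7.69 in all Cre plus livers, so the genotype labels held in every liver. Albumin, the main plasma protein made by hepatocytes, had a median of 13.74 over the 32 livers. The labels place every array in batch PHX2 or PHX3, and each group spans both. Of the members tested, 51.5% differed between batches against 27 percent of all probe sets, so batch was a term of every fit. Of those that differed, 30 read higher and 5 lower in PHX3 than in PHX2. The median batch difference over the 68 members tested was 0.14. The 3 arrays Cre minus C at 30 h, Cre plus A at 30 h and Cre plus D at 40 h correlated below 0.95 with the other arrays of their group over the probe sets tested. Over all probe sets but the controls, they stood at 0.970, 0.972 and 0.969, and no array lay below 0.95. Results are from limma's moderated test with Benjamini-Hochberg adjustment over all 9249 probe sets tested. A member was called at an adjusted p under 0.05, and differences are on the log2 scale of the values that the authors deposited.

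Promoter sequences of members are shown because genes for the chain are known to share binding sites for NRF1, ETS factors and YY1. Ndufs4, Atp5e and Atp5j stand for the members called below, and Sdha and Sdhd, which were not called, for complex II. RefSeq's promoter table (GRCm38.p6, from 250 bases before to 50 bases after each annotated start) held 58 of the 71 members with 63 promoters; Sdhc and Uqcrq had no entry. Each sequence below is the 250 bases before the start, 5′ to 3′ on the gene's strand, which is the minus strand for all of them. Capitals mark the NRF1 site (its palindrome of 10 bases, with the sixth base free), the letters CCGGAAG (ETS) and the letters AAGATGGCG (YY1), on either strand. Sdha at chr13:74350241-74350490, Sdhd at chr9:50603850-50604099, Atp5j at chr16:84834977-84835226, Atp5e at chr2:174464102-174464351 and Ndufs4 at chr13:114388095-114388344 read as follows.
Sdha: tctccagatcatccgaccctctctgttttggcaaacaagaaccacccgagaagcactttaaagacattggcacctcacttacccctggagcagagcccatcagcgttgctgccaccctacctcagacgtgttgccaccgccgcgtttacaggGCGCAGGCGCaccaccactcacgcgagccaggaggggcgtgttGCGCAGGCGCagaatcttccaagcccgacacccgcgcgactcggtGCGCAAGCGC
Sdhd: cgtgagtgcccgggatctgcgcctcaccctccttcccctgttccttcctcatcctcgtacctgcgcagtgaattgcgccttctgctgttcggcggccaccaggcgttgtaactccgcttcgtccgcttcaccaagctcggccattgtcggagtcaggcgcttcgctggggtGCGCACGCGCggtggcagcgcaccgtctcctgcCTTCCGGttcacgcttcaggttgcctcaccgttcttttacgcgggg
Atp5j: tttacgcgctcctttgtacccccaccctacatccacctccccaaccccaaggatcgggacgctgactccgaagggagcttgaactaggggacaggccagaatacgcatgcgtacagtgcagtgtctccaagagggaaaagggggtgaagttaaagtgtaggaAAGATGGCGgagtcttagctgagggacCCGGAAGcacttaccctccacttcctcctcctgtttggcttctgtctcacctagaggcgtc
Atp5e: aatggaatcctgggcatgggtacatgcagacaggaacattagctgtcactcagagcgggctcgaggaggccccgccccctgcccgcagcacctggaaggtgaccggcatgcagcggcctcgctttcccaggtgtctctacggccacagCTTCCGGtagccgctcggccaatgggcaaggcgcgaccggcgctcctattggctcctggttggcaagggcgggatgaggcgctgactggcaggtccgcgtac
Ndufs4: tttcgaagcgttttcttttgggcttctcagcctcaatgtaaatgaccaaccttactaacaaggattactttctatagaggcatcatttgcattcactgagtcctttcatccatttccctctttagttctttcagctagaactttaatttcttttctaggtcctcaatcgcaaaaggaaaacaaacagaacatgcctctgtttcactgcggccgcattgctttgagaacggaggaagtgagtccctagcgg

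The Sdha sequence held the NRF1 letters 3 times, and Sdhd held it once beside an ETS match. Atp5j had 2 annotated starts, and the one with more matches was printed. Its printed bases held a YY1 match and an ETS match, while the window of its other start held none of these motifs. Atp5e held an ETS match at -102 from the start. The printed bases of Ndufs4 held none of these letters, and its GC content was 42.0%. A YY1 match lay at +36, inside the transcript. Over both strands of the whole 300-base window, the NRF1 letters were found in 20.6% of the 63 member promoters against 4.60% of all 32851 promoters. The NRF1 palindrome with no free base, a subset of those matches, was found in 7.94% against 0.971%. CCGGAAG was found in 25.4% against 8.86%, and AAGATGGCG in 7.94% against 1.40%. The letters TNAAGGTCA of the ERR-alpha site were found in 1.59% against 1.28%. In all, 29 of the 58 genes held at least 1 of these motifs, and the share of all genes that did was not counted. Median GC content was 57.6% in member promoters and 52.4% in all promoters, and a match is a description of letters, not evidence of binding.

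Of the 71 members, 68 passed the filter on low signal. Cox5a, Cox7a1 and Cox8a did not, with mean signals of 4.01, 3.48 and 4.05, and no test result is given for them. Signals of different probe sets cannot be ranked against each other as transcript levels, so the span of each is given for itself. In complex I, the probe set of Ndufb5 read 10.70 to 11.35 over the 32 livers and that of Ndufc2 read 4.72 to 5.20. In complex V, Atp5l read 11.01 to 11.79 and Atp5j2 read 4.38 to 5.20. The Ndufs4 probe set lay at the 35.4 percentile of its arrays, near the level of the filter, while those of Sdhc, Uqcrq, Ndufa3, Atp5e and Atp5j lay above the 95th. The 10 chain probe sets annotated to several genes were left out, among them those of Ndufs5, Ndufs6 and Cox7c.

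At 20 h after surgery most members read lower than at 0 h, by a little, in both genotypes. In Cre minus livers 58 of 68 members had a negative difference, with a median of -0.16, against 56.2% of all probe sets and a median of -0.03. 4 members, Ndufs4, Ndufa13 and Ndufa9 of complex I and Sdhc of complex II, fell past the threshold (4 of 68), and none rose. Over all probe sets, 7.37 percent were called in this comparison, 3.33 percent higher and 4.04 percent lower. In Cre plus livers 56 of 68 members had a negative difference, with a median of -0.15, against 55.0% and -0.02 over all probe sets. 4 members fell, Uqcrq of complex III, Atp5e and Atp5j of complex V and Ndufa3 of complex I, and none rose. There 9.07 percent of all probe sets were called, 3.55 percent higher and 5.52 percent lower. In both genotypes the share of members called was near that of all probe sets, while more members than probe sets at large were negative. With total RNA from whole liver, fewer cells of a type and less RNA per cell cannot be told apart.

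By complex, the Cre minus medians at 20 h were -0.18 for complex I, -0.41 for complex II, -0.19 for complex III, -0.07 for complex IV and -0.14 for complex V. The Cre plus medians were -0.19, -0.29, -0.19, -0.07 and -0.13 in the same order. Complex II was lowest in both, and it has 4 members, each of which was negative. Complex IV was nearest 0 in both. Across the 68 members the difference in one genotype correlated with that in the other at r = 0.83 (rho = 0.81), as a description across genes that share arrays and probes. Over all probe sets r was 0.85, a value of the same size. Of the 68 members 64 had the same sign in both genotypes and 55 were negative in both. Ndufaf4, Ndufab1, Cox7a2l and Cox6a2 had the highest positive differences in both genotypes, from 0.10 for Ndufab1 to 0.36 for Ndufaf4 in Cre minus livers; none of these passed the test.

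**Figure D1:**
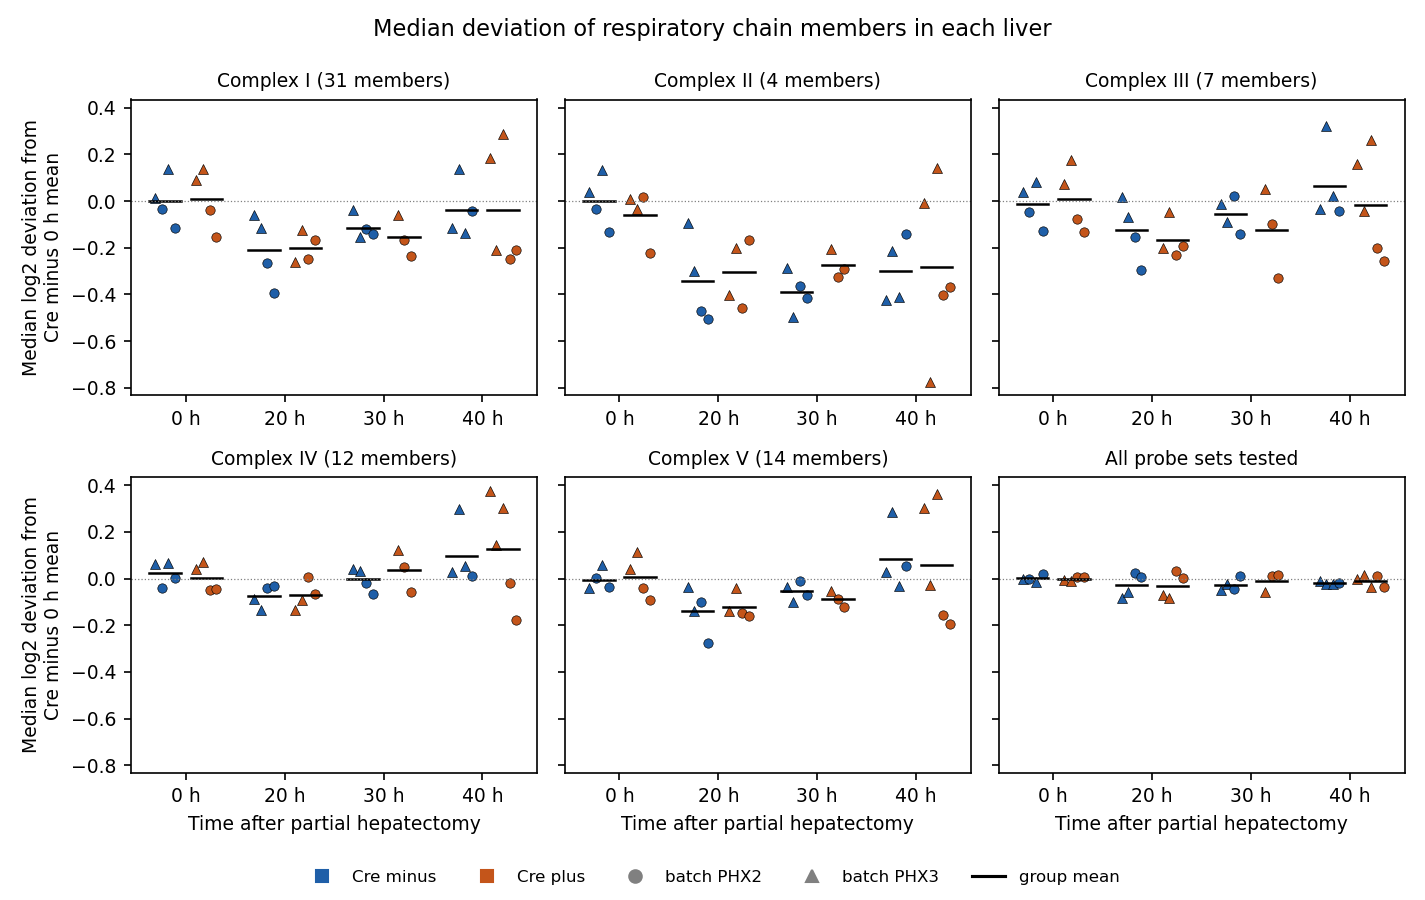
Median log2 deviation from the Cre minus 0 h mean over the members of each complex (5 panels) and over all probe sets (last panel), 1 point per liver against time after partial hepatectomy in hours, with Cre minus in blue, Cre plus in orange, circles for PHX2, triangles for PHX3 and a black line at each group mean. Complex II lies below 0 in most livers after surgery, and the Cre plus livers at 40 h spread from -0.77 to 0.14 in it. Points are not adjusted for batch.

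Single livers show the size of the shift. The median over members, as a deviation from the Cre minus 0 h mean, ran from -0.08 to 0.10 in Cre minus livers at 0 h and from -0.29 to -0.05 at 20 h. In Cre plus livers it ran from -0.12 to 0.11 at 0 h and from -0.21 to -0.11 at 20 h. All Cre minus livers but the highest at 20 h lay below the 0 h range, and in Cre plus livers the ranges overlapped narrowly. These values of single livers were not adjusted for batch. At 0 h the PHX3 livers of each genotype lay above its PHX2 livers. Within batches, the median of the members' differences at 20 h was -0.18 in PHX2 and -0.12 in PHX3 for Cre minus, and -0.09 and -0.22 for Cre plus. The arrays' controls for RNA quality moved over the same interval. The log2 difference between the 3′ and 5′ control probe sets for beta-actin had a mean of 1.01 at 0 h and 0.92 at 20 h in Cre minus livers, with overlap. In Cre plus livers it was 1.05 and 0.93, without overlap (lowest 1.03 at 0 h, highest 1.01 at 20 h). The same measure for Gapdh was 0.24 and 0.17 in Cre minus and 0.33 and 0.23 in Cre plus livers, with overlap in both. The part of RNA quality in the members' shift was not tested.

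Among the complex I members, Ndufs4 changed most at 20 h in Cre minus livers. Its product is an accessory subunit beside the electron-input end of complex I, and its loss causes fatal encephalopathy in mice and people. The Cre minus livers read 5.43, 5.24, 5.67 and 5.29 at 0 h and 4.84, 4.66, 4.76 and 4.84 at 20 h. Every liver at 20 h lay below every liver at 0 h. Ndufs4 fell by 0.63 (SE 0.110, 95% interval -0.86 to -0.41, adjusted p = 0.00117, limma). The difference was -0.47 within PHX2 and -0.80 within PHX3.

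At 30 h the Cre minus livers read 4.842, 4.994, 4.995 and 5.011, and at 40 h they read 5.10, 5.21, 5.15 and 5.25. Ndufs4 was still 0.45 lower than at 0 h at 30 h (adjusted p = 0.0264), and at 40 h it had risen by 0.41 over the 20 h level (adjusted p = 0.0292, limma), with no overlap in either comparison. The 30 h call was lost without Cre minus A or C at 0 h or A or B at 30 h (highest adjusted p 0.126). The 40 h rise was lost without B, C or D at 20 h or A, B or C at 40 h (highest adjusted p 0.0989). In Cre plus livers Ndufs4 read 5.12, 5.47, 5.35 and 5.46 at 0 h, and 5.02, 4.91, 5.06 and 5.09 at 20 h, a difference of -0.33 (adjusted p = 0.0619). It read 4.78, 5.04 and 5.37 at 30 h. At 40 h the Cre plus livers read 5.17, 4.93, 5.16, 5.06 and 4.77, with A and C inside the 0 h range and the others below it, and Ndufs4 was 0.33 lower than at 0 h on the fitted scale (95% interval -0.54 to -0.11, adjusted p = 0.0472, limma). That call was lost without Cre plus B, C or D at 0 h or B, D or E at 40 h (highest adjusted p 0.159). The drop at 20 h differed between genotypes by 0.31 (95% interval -0.01 to 0.63), which did not pass the test.

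Ndufa13, an accessory subunit also known as a cell death regulator, read 9.22, 8.87, 9.18 and 8.82 in Cre minus livers at 0 h and 8.66, 8.57, 8.57 and 8.46 at 20 h. The groups did not overlap, and Ndufa13 fell by 0.46 (SE 0.118, 95% interval -0.70 to -0.21, adjusted p = 0.0191). Ndufa9, which sits where the matrix and membrane arms of complex I meet, read 10.08, 9.91, 10.06 and 9.85 at 0 h and 9.80, 9.76, 9.39 and 9.53 at 20 h. It fell by 0.36 (SE 0.109, 95% interval -0.58 to -0.13, adjusted p = 0.0432), again with no overlap. The 20 h differences in Cre plus livers were -0.35 for Ndufa13 and -0.33 for Ndufa9, neither past the threshold (adjusted p = 0.0665 and 0.0584). The Ndufa13 call in Cre minus livers was lost without A or C at 0 h or B or D at 20 h (highest adjusted p 0.0692), and that of Ndufa9 without any liver of either group except A at 20 h (highest adjusted p 0.151).

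Ndufa3, a small subunit of the membrane arm, moved with time in both genotypes. Cre minus livers read 10.51, 10.44, 10.62 and 10.31 at 0 h. They read 10.31, 10.30, 10.19 and 10.01 at 20 h and 10.59, 10.62, 10.72 and 10.52 at 40 h. From 20 to 40 h Ndufa3 rose by 0.36 with no overlap (adjusted p = 0.0152, limma); 2 members rose in that comparison, the other being Ndufs4, against 5.8 percent of all probe sets called and 2.66 percent called higher. Cre plus livers read 10.56, 10.58, 10.15 and 10.28 at 0 h and 10.12, 10.21, 10.11 and 10.04 at 20 h. Ndufa3 fell there by 0.27 (SE 0.0866, adjusted p = 0.0481), with 1 liver at 0 h below 1 liver at 20 h. The Cre plus call was lost without any of A, B or D in either group (highest adjusted p 0.179), and the Cre minus rise without D at 20 h or C at 40 h (highest adjusted p 0.0540).

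The core subunits of complex I that had a probe set were Ndufs1, Ndufs3, Ndufv1 and Ndufv2, which carry the flavin or iron-sulfur clusters or hold them in place. None passed the test at 20 h in either genotype. Ndufv1, which binds NADH, had a difference of -0.34 in Cre minus livers (95% interval -0.60 to -0.07, adjusted p = 0.112) and -0.32 in Cre plus livers (-0.58 to -0.06, adjusted p = 0.114). Ndufs1 stood at -0.31 and -0.29, Ndufv2 at -0.16 and -0.12, and Ndufs3 at -0.11 and -0.01. Ndufb10, an accessory subunit, had -0.51 and -0.53 with adjusted p = 0.0852 and 0.0664. The intervals of Ndufs1 and Ndufb10, and that of Ndufv1 in Cre minus livers, reached beyond 1.5-fold. The data thus left room for a change of that size in these genes.

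Complex II, which is also an enzyme of the citric acid cycle, read lower after surgery at every time in both genotypes. Its medians were -0.41, -0.40 and -0.36 at 20, 30 and 40 h in Cre minus livers and -0.29, -0.21 and -0.25 in Cre plus livers. The median over all 68 members was 0.01 and -0.01 at 40 h. Sdhc, one of the membrane anchors that bind ubiquinone, was the member called. Cre minus livers read 10.50, 10.45, 10.65 and 10.28 at 0 h. At 20 h they read 10.21, 10.06, 9.82 and 9.94 and at 30 h 10.14, 9.85, 9.98 and 10.18. At 40 h they read 9.96, 10.01, 10.01 and 10.32. No liver at 20 or 30 h reached the lowest at 0 h, and at 40 h liver D did.

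Sdhc fell by 0.46 at 20 h (SE 0.122, 95% interval -0.71 to -0.21, adjusted p = 0.0206) and by 0.43 at 30 h (adjusted p = 0.0483), and stood at -0.40 at 40 h (adjusted p = 0.0594). Cre plus livers read 10.40, 10.46, 10.57 and 10.23 at 0 h and 10.04, 10.21, 9.91 and 10.29 at 20 h, with a difference of -0.30 (adjusted p = 0.123). At 40 h they read 10.20, 9.67, 10.31, 10.02 and 10.09, and Sdhc was 0.36 lower than at 0 h (95% interval -0.60 to -0.12, adjusted p = 0.0481), with liver C inside the 0 h range. The 20 h call was lost without Cre minus A or C at 0 h or C or D at 20 h (highest adjusted p 0.0833), the 30 h call without A, B or C of either group (0.173), and the Cre plus 40 h call without A, B or C at 0 h or B, D or E at 40 h (0.164).

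Sdha, the flavoprotein that oxidises succinate, had the largest drop of any member at 40 h in size but also the widest spread in complex II. Cre minus livers read 7.86, 7.57, 7.66 and 7.07 at 0 h and 6.97, 6.78, 6.99 and 7.40 at 40 h. Cre plus livers read 7.72, 7.48, 7.18 and 7.26 at 0 h and 7.53, 5.71, 7.79, 6.52 and 6.74 at 40 h, where A lay inside the 0 h range, C above it and the other livers below it. The differences of -0.57 (95% interval -1.15 to 0.01) and -0.58 (-1.12 to -0.03) did not pass the test (adjusted p = 0.31 and 0.182, limma). Sdhb, the iron-sulfur subunit, stood at -0.37 in Cre minus livers at 20 h (adjusted p = 0.0518) and -0.28 in Cre plus livers. Sdhd, the other anchor, stood at -0.12 and -0.16. In Cre minus livers at 40 h the complex II median was 0.02 within PHX2, which held 1 such liver, and -0.44 within PHX3.

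**Figure D2:**
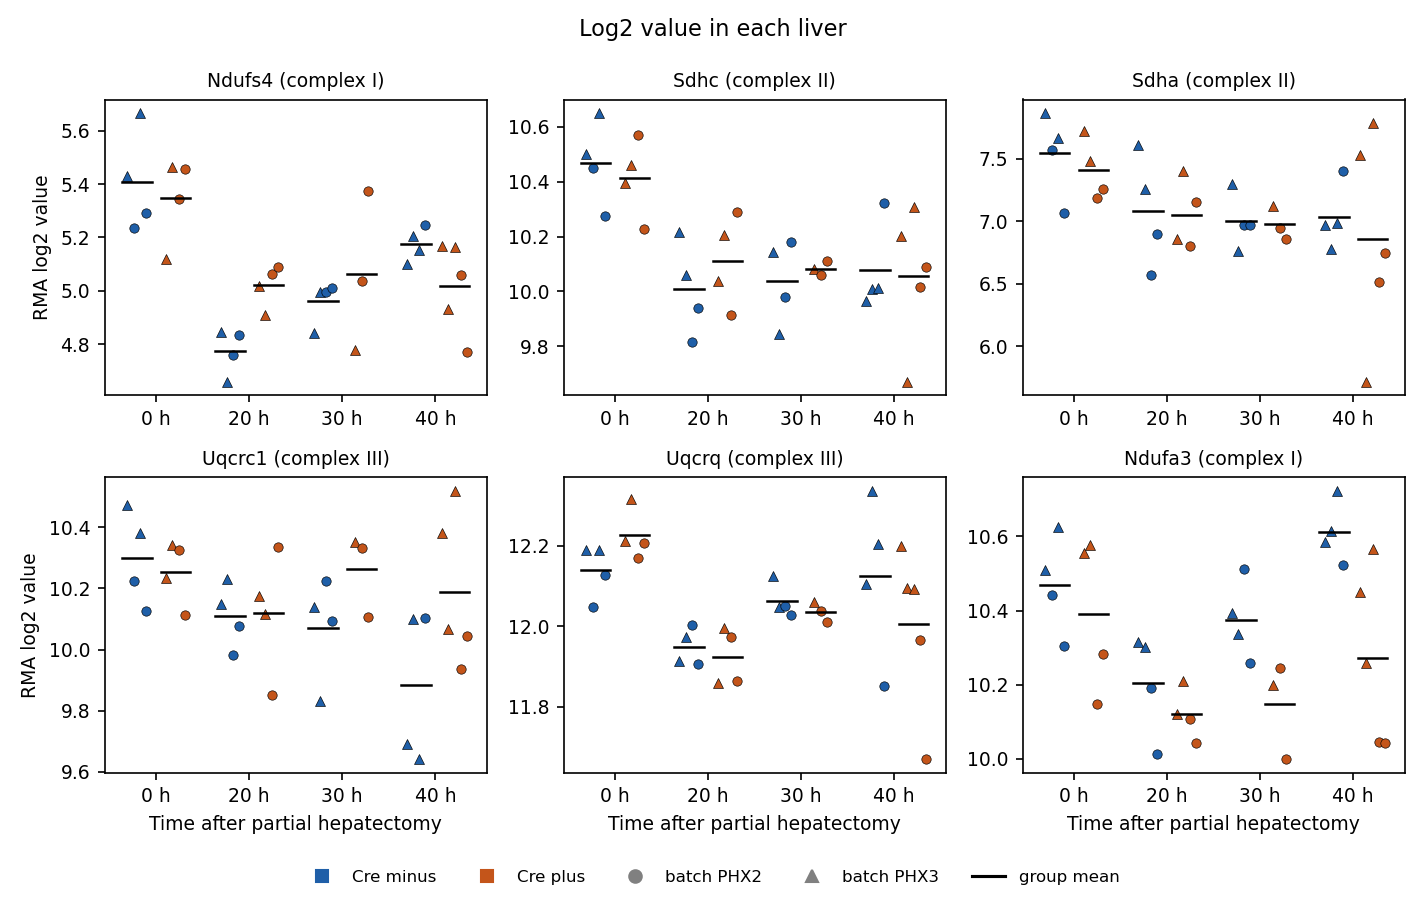
RMA log2 value of Ndufs4, Sdhc, Sdha, Uqcrc1, Uqcrq and Ndufa3 in each liver against time after partial hepatectomy in hours, with Cre minus in blue, Cre plus in orange, circles for PHX2, triangles for PHX3 and a black line at each group mean. Ndufs4 is lowest at 20 h in Cre minus livers, at 4.66 to 4.84, and Sdha spreads from 5.71 to 7.79 in Cre plus livers at 40 h.

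In complex III, Uqcrq and Uqcrc1 were called, in different genotypes. Uqcrq, a small subunit of the complex, read 12.21, 12.32, 12.17 and 12.21 at 0 h in Cre plus livers, and 11.86, 12.00, 11.97 and 11.87 at 20 h. The groups did not overlap, and Uqcrq fell by 0.30 (SE 0.0792, 95% interval -0.47 to -0.14, adjusted p = 0.0167). At 40 h the Cre plus livers read 12.20, 12.10, 12.09, 11.97 and 11.67, of which A lay inside the 0 h range, and Uqcrq was 0.23 lower (adjusted p = 0.0486, limma). In Cre minus livers the 20 h difference was -0.19 (-0.35 to -0.03, adjusted p = 0.155). The Cre plus call at 20 h was lost without D at 0 h or A at 20 h (highest adjusted p 0.0953), and that at 40 h without any 0 h liver or without B, C, D or E at 40 h (0.134).

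Uqcrc1, a core protein of complex III, was the 1 member called at 40 h in Cre minus livers, where 4.77 percent of all probe sets were called, 2.32 percent higher and 2.44 percent lower. It read 10.47, 10.22, 10.38 and 10.13 at 0 h and 9.69, 10.10, 9.64 and 10.10 at 40 h, with A and C well below the others and no overlap. It fell by 0.44 (SE 0.129, 95% interval -0.70 to -0.17, adjusted p = 0.0471), but by 0.07 within PHX2 and by 0.62 within PHX3, and the call was lost without A, B or C at 0 h or A or C at 40 h (highest adjusted p 0.182). In Cre plus livers at 40 h it read 10.38, 10.07, 10.52, 9.94 and 10.04, a difference of -0.07 from 0 h (adjusted p = 0.768). The other core protein, Uqcrc2, stood at 0.12 (Cre minus) and 0.25 (Cre plus) at 40 h, neither past the threshold. Uqcr11, Uqcrb and Uqcrh also did not pass at 20 h, at -0.30, -0.24 and -0.04 in Cre minus livers.

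No complex IV member was called in any of the 15 comparisons. The median over complex IV moved from -0.07 at 20 h to 0.05 at 40 h in Cre minus livers and from -0.07 to 0.10 in Cre plus livers. Cox4i1, the regulatory subunit of the ubiquitous type, stood at -0.09 and -0.01 at 20 h in Cre minus and Cre plus livers, and Cox5b at -0.06 and -0.14. Their 95% intervals at 20 h, -0.37 to 0.18 and -0.30 to 0.18 in Cre minus livers, lay within 1.5-fold. The isoform pairs of complex IV differ by tissue. Cox6a1, the ubiquitous isoform, stood at -0.02 at 20 h in Cre minus livers, and Cox6a2, the heart and muscle isoform, at 0.19 with an interval of -0.55 to 0.93.

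The width of that interval came from 3 livers. Cox6a2 read 8.61 in Cre plus A at 40 h, 7.60 in Cre plus D at 20 h and 6.95 in Cre minus D at 20 h, and no other liver read above 6.42. The muscle actin gene Acta1 read 10.14, 8.59 and 7.63 in the same livers and at most 4.89 in any other. The fast muscle troponin gene Tnnt3 was also highest in these livers, at 7.85, 6.36 and 5.33. Cox7a1, another muscle isoform, whose probe set did not pass the filter, read 4.85 in Cre plus A at 40 h. It read no more than 3.81 in any other liver. Acta1 and Tnnt3 were thus high in the livers where Cox6a2 was. Other muscle genes had narrower spans over all livers. Ckm read 5.64 to 6.18, Mb 4.28 to 5.06, Myh4 6.35 to 7.09 and Actc1 6.91 to 7.73. The part of muscle genes in the other results was not tested beyond leaving out the 3 arrays highest in Acta1, a check chosen after seeing the data. Without them Cre minus livers had 1 member called at 20 h (Ndufs4), against 3.69% of all probe sets, with Ndufa13, Sdhc and Ndufa9 at adjusted p = 0.0535, 0.0603 and 0.0984. The Cre plus livers then had 7 called at 20 h against 10.6% of all probe sets, and 5 at 40 h against 9.76%.

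In complex V, Atp5e and Atp5j fell at 20 h in Cre plus livers. Atp5e, the epsilon subunit of the central stalk, read 10.24, 10.42, 10.24 and 10.30 at 0 h and 9.64, 9.92, 10.19 and 9.94 at 20 h. Liver C at 20 h came close to the 0 h range without reaching it, and Atp5e fell by 0.38 (SE 0.110, 95% interval -0.60 to -0.15, adjusted p = 0.0298). Atp5j, coupling factor 6 of the peripheral stalk, read 10.10, 10.06, 9.76 and 9.77 at 0 h against 9.45, 9.71, 9.54 and 9.47 at 20 h. The groups did not overlap, and Atp5j fell by 0.38 (SE 0.113, 95% interval -0.61 to -0.15, adjusted p = 0.0339).

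In Cre minus livers both genes stood at -0.31 at 20 h, with adjusted p = 0.0825 and 0.0928. The Cre plus calls were lost without A, B or D at 0 h or A or B at 20 h for Atp5e (highest adjusted p 0.171), and without any 0 h liver or A or B at 20 h for Atp5j (0.179). Apart from Atp5e, the tested subunits of the catalytic head and central stalk did not pass. Atp5a1, the alpha subunit, stood at -0.09 (Cre minus) and 0.03 (Cre plus), and Atp5c1, the gamma subunit, at -0.28 and -0.25. Atp5g1 and Atp5g2 encode the same mature protein of the proton-carrying ring, and stood at 0.06 and -0.08 in Cre minus and at 0.01 and -0.12 in Cre plus livers.

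From 20 to 40 h most differences between group means were positive, though few members or none passed the test. In Cre minus livers 61 of 68 had a positive difference, with a median of 0.15, and in Cre plus livers 60 of 68, with a median of 0.13. All 14 members of complex V were positive in both. In Cre plus livers none of the 68 was called, where 0 percent of all probe sets were; 12 members had an unadjusted p under 0.05. The Cre plus median was -0.04 within PHX2 and 0.29 within PHX3. At 30 h 47 members (Cre minus) and 44 members (Cre plus) were negative against 0 h, with a median of -0.08 in both. In Cre minus livers Ndufs4 and Sdhc were called at 30 h (2 members), against 3.14 percent of all probe sets and 2.13 percent called lower. By limma, no member was called at 30 h in Cre plus livers, where 9.89 percent of all probe sets were; 11 members had an unadjusted p under 0.05. At 40 h 34 of 68 members were negative in each genotype, and the 3 called in Cre plus livers, Ndufs4, Sdhc and Uqcrq, compare with 9.66 percent of all probe sets called, 3.59 percent higher and 6.07 percent lower. With arrays weighted by quality, an alternative that favours arrays near their group, 11 members were called higher and 2 lower at 40 h in Cre plus livers, where 14.9% of all probe sets were called. At 40 h 12 were called in Cre minus livers, all lower, against 21.2% of all probe sets. From 20 to 40 h 19 were called in Cre plus livers, all higher, against 7.07%, and in Cre minus livers 2 were called higher and 2 lower, against 24.5%.

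**Figure D3:**
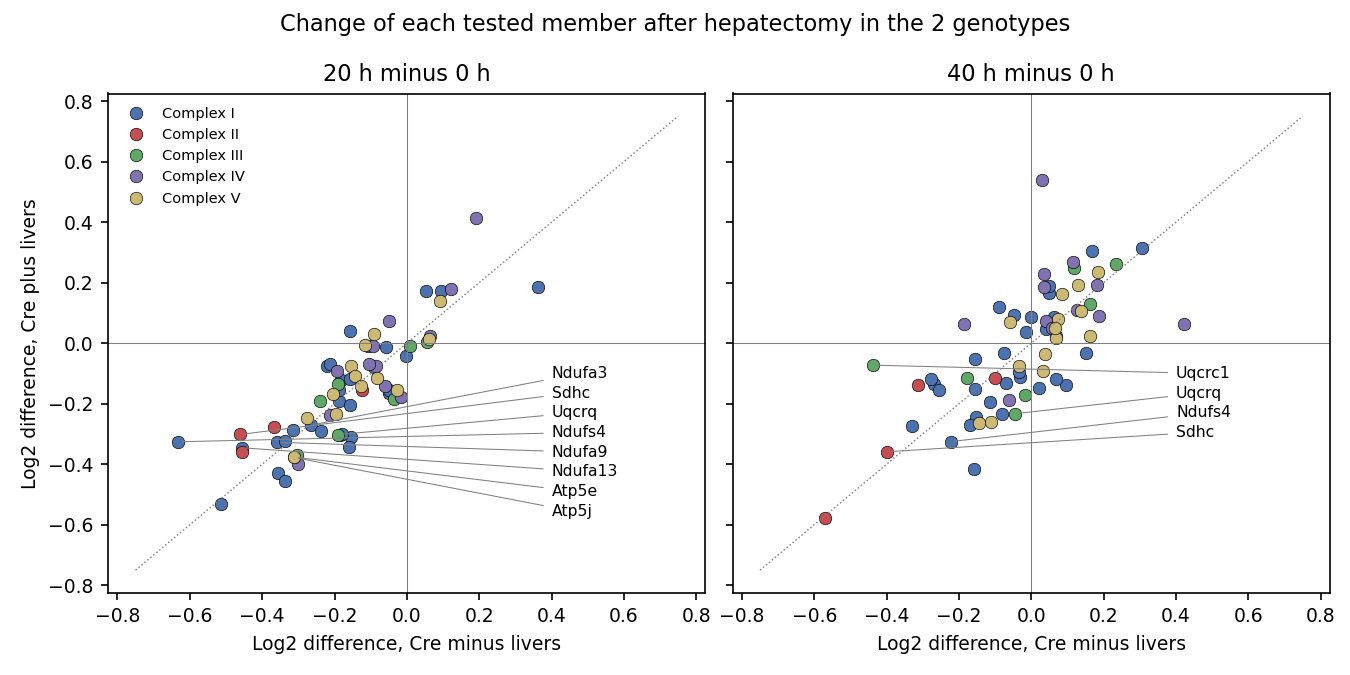
Difference from 0 h of each of the 68 members in Cre minus livers (x axis, log2) against that in Cre plus livers (y axis, log2) at 20 h (left) and 40 h (right), coloured by complex, with a dotted line where both are equal and names at members called in either genotype. At 20 h 55 of the 68 members are negative in both genotypes and at 40 h 28 are.

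Between genotypes the members differed little at any time. The median Cre plus minus Cre minus difference was -0.01 before surgery, -0.00 at both 20 and 30 h, and -0.02 at 40 h. No member was called at 0, 20 or 30 h by limma, where 0.0649, 0.292 and 0.281 percent of all probe sets were; at 0 h 1 member had an unadjusted p under 0.05. At 40 h 1 member was called, Ndufa3, against 5.35 percent of all probe sets, of which 2.28 percent were higher and 3.07 percent lower in Cre plus. For Ndufa3, Cre plus livers at 40 h read 10.45, 10.26, 10.57, 10.04 and 10.04 against 10.59, 10.62, 10.72 and 10.52 in Cre minus livers. Cre plus C lay inside the Cre minus range and the other Cre plus livers below it.

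Ndufa3 was 0.31 lower in Cre plus (SE 0.0824, 95% interval -0.48 to -0.14, adjusted p = 0.0227), and -0.48 within PHX2 and -0.22 within PHX3. A second Ndufa3 probe set gave -0.15 (adjusted p = 0.50), and the suffix of the member probe set's name (f_at) marks probes shared by a sequence family. The call was lost without Cre minus C or D or Cre plus B, D or E (highest adjusted p 0.0784). With arrays weighted by quality Ndufa3 was not called (-0.19, adjusted p = 0.166), while 11 other members were called, all higher in Cre plus, against 9.31% of all probe sets.

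The intervals show how large a genotype difference the data leave room for. At 40 h the 95% interval lay within 1.5-fold in either direction for 64 of the 68 members, compared with 75.4% of all probe sets. The 4 members whose intervals reached further were Cox6b2, Sdha, Ndufaf4 and Cox6a2. At 0, 20 and 30 h the interval lay within 1.5-fold for 63, 63 and 62 members. Uqcrc1 stood at 0.32 at 40 h (95% interval 0.07 to 0.57, adjusted p = 0.147), the highest difference after that of Cox6a2. The change with time since surgery did not differ between genotypes past the threshold for any member at 20, 30 or 40 h in limma's interaction test, where 0, 0.0108 and 0.584 percent of all probe sets were called; 0, 1 and 1 members had an unadjusted p under 0.05.

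**Figure D4:**
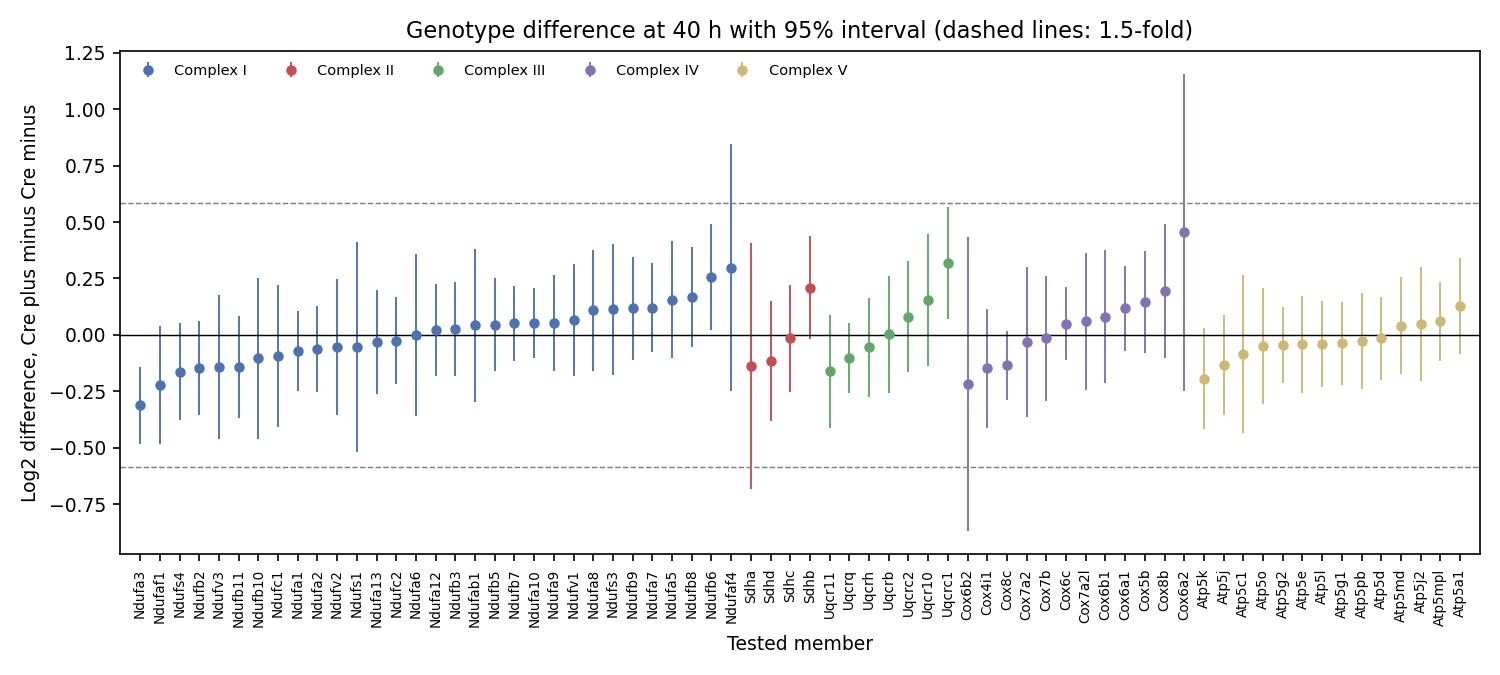
Cre plus minus Cre minus difference at 40 h (log2) of each of the 68 members with its 95% interval from limma, grouped and coloured by complex, with dashed lines at 1.5-fold in either direction. Ndufa3 at -0.31 is the member called, and 64 intervals lie within the dashed lines.

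The Cre plus livers at 40 h were the most unlike each other in these genes. The median over members was 0.23 in A, -0.15 in B, 0.28 in C, -0.17 in D and -0.21 in E, an SD of 0.24, and A and C were above every Cre minus liver at 40 h, which ran from -0.07 to 0.21. These medians were not adjusted for batch, and A, B and C were in PHX3, D and E in PHX2. For complex II the same livers read -0.01, -0.77, 0.14, -0.40 and -0.37. The within-batch medians of the genotype difference at 40 h were -0.18 in PHX2 and 0.12 in PHX3, of opposite sign. Markers of other cells also differed between genotypes at 40 h. Of 10 Kupffer cell and macrophage markers tested 6 were lower in Cre plus at 40 h, with a median of -0.75 over the 10 (Clec4f, the Kupffer cell lectin, -1.43). Their mean level at 40 h ran from 7.40 to 8.09 in Cre minus and from 6.62 to 7.32 in Cre plus livers. Of 5 erythroid markers 2 were lower (Hba-a1, -3.12), and of 8 hepatocyte markers 1 was (Ttr, -1.24). The Kupffer cell and macrophage mean was lower in Cre plus without overlap at earlier times too, including before surgery. It ran from 7.84 to 8.15 in Cre minus and from 7.27 to 7.81 in Cre plus livers at 0 h. At 20 h the spans were 7.68 to 8.06 and 6.62 to 7.22, and at 30 h 7.32 to 7.85 and 6.69 to 7.29. The erythroid mean did not overlap at 30 h (7.15 to 7.66 and 5.96 to 6.72) but did at 0 and 20 h. The part of these cells in the members' values was not tested.

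Other mitochondrial genes, on lists fixed by function, moved in both directions. Of 13 citric acid cycle genes tested, 2 rose and 1 fell at 20 h in Cre plus livers: Fh1, fumarase, by 1.38, Dlst, of the 2-oxoglutarate dehydrogenase, by 0.54, and Suclg2, of a succinyl-CoA ligase, with -0.45. Fh1 rose by 1.08 at 40 h in Cre minus livers (adjusted p = 0.0104) and Suclg2 fell by 0.49 at 20 h. Fumarase and succinyl-CoA ligase stand on either side of complex II in the cycle. At 40 h Dlst was 0.61 higher in Cre plus than in Cre minus livers (adjusted p = 0.0103, limma), the 1 gene of the 13 called between genotypes.

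Of 18 electron carriers, quinone synthesis and exchange proteins, Sqor, which feeds electrons from sulfide into ubiquinone, fell by 0.83 at 20 h in both genotypes. Coq7, of ubiquinone synthesis, rose by 0.72 in Cre plus livers, and no gene of this list was called between genotypes at 40 h. Of 20 import and folding genes, 2 were higher in Cre plus at 40 h and none lower: Hspa9, the matrix Hsp70, by 0.57 and Timm23, the inner membrane channel, by 0.49 (adjusted p = 0.00693 for both). From 0 to 40 h 6 of the 20 rose in Cre plus livers, from Timm10 at 0.39 to Timm17a at 0.65, and none fell. Of 59 mitochondrial ribosomal proteins, 1 was higher and 1 lower in Cre plus at 40 h, Mrpl35 at 0.42 and Mrps12 at -0.31. Of 14 assembly factors outside the symbol rule 1 was lower, Uqcc2, which serves complex III, at -0.47 (adjusted p = 0.0246). None of 10 regulators of mitochondrial biogenesis tested was called between genotypes at 40 h; Polg2, of the mitochondrial DNA polymerase, fell by 0.50 at 20 h in Cre minus livers, and Pprc1, a coactivator, rose by 0.67 in Cre plus livers. Genes named here only for Cre plus livers were chosen after their values were seen, and the percentages of all probe sets called are those given above for each comparison.

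For 20 members the array had more than 1 probe set, and 18 of the 27 further probe sets passed the filter. Some gave other answers than the member probe set, and the following were picked after their values were seen. A second probe set of Cox6b2, the testis isoform, was 0.91 higher at 40 h than at 0 h in Cre minus livers (adjusted p = 0.00126) and 0.74 lower in Cre plus than in Cre minus at 40 h (adjusted p = 0.00568), while the member probe set stood at 0.42 and -0.22 without passing. A second probe set of Cox6c was 0.77 lower at 40 h than at 0 h in Cre plus livers (adjusted p = 0.00578), while the member probe set stood at 0.19.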

How the data were processed

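Per the submitters' processing notes, the authors used RMA to make the deposited log2 values. The sources used here do not give the RMA version or say whether 1 run covered PHX2 and PHX3, and base 2 was inferred from values between 2.30 and 14.12. Of 12488 probe sets, 66 were controls, 10833 had 1 gene in the platform annotation, 396 several and 1193 none.

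Probe sets above the 30th percentile of their own array on at least 3 arrays were kept (9249). Group means with batch as a covariate were fitted to all 32 arrays with limma 3.58.1 in R 4.3.3, checked on simulated data. The 32 arrays limit the precision. Members and gene lists were chosen with earlier results of these data known. Members were named if called between genotypes or in the interaction, if among the 3 highest or lowest called in a time comparison, if highest or lowest in mean signal in a complex, or if a catalytic or paralogous subunit; others named were chosen after seeing their values. Alternatives changed the batch term, filter, scaling, array weights, probe set choice and arrays. The labels do not say whether matching letters mark pairs of livers, and livers were not treated as paired.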

Additional observations from a re-analysis of the deposited data

Results flagged for a closer look

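In 105 sets of 4 or 5 livers of a group, 4 had 1 liver far from the others by Dixon's criterion, which chance alone meets in about 1 in 20 groups. The complex IV median of Cre minus B at 40 h was 0.30, with the next liver at 0.05. Ndufa13 read 8.52 in Cre plus A at 20 h, with the next at 8.75. Ndufs4 read 4.84 in Cre minus A at 30 h, below the next at 4.99, and the call at 30 h was lost without this liver. Sdhc read 10.32 in Cre minus D at 40 h, above the next at 10.01.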

How the results depend on the processing

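No called member changed sign in any alternative, but several medians over the members differed in sign between the pooled value and a batch, among them Cre plus from 20 to 40 h (0.13 pooled, -0.04 within PHX2) and genotype at 40 h (-0.02 pooled, 0.12 within PHX3). Of the calls of single members, 157 held and 60 were lost over the alternatives, and 58 held and 82 were lost when single livers were left out. Ndufs4 in Cre minus livers at 20 h kept its call in all 12 alternatives run for it and without each of the 8 livers. Counts of members called moved by over 1.5 times as follows, where counts against 0 h are meant unless said otherwise. A replicate block was fitted on the letters, though the labels do not say whether these pair livers. With group means and batch removed, what was left of the values correlated between -0.42 and 0.33 over the 15 pairs of livers with the same letter. Of these pairs, 3 lay in different batches. With that block genotype at 40 h had 0 called, Cre minus 1 at 30 h and 0 at 40 h, and Cre plus 0 at 40 h. Without the batch term they had 0, 1, 0 and 0, and Cre plus 2 at 20 h, as with batch as a random block (2). With quantile scaling Cre minus had 2 at 40 h; with arrays centred it had 1 at 30 h and 0 at 40 h. Without the filter Cre minus had 1 at 30 h and 0 at 40 h, and Cre plus 0 at 40 h; with the filter at the 50th percentile Cre minus had 1 at 30 h and 1 from 20 to 40 h. With array weights genotype had 5 at 30 h and 11 at 40 h, Cre minus 18 at 20 h, 12 at 40 h (all lower) and 4 from 20 to 40 h, Cre plus 22, 14 and 13 at 20, 30 and 40 h and 19 from 20 to 40 h, and the interaction 2 at 30 h and 1 at 40 h; the cause was not tested. With the mean of a gene's probe sets genotype at 40 h had 0 and Cre minus at 40 h 2. Without the 3 arrays that correlated below 0.95 Cre minus had 7 at 20 h. Without the 3 arrays highest in Acta1 (chosen after seeing the data) Cre minus had 1 at 20 h, 1 at 30 h and 0 from 20 to 40 h, and Cre plus 7, 1 and 5 at 20, 30 and 40 h. With only the arrays of the groups compared (chosen after seeing the data) genotype at 40 h had 0, Cre minus 10, 0 and 0 at 20, 30 and 40 h and 1 from 20 to 40 h, and Cre plus 7, 2 and 0. Leaving out single livers gave 0 to 1 for genotype at 40 h, 1 to 4, 0 to 2 and 0 to 2 for Cre minus at 20, 30 and 40 h and 0 to 4 from 20 to 40 h, and 0 to 9, 0 to 1 and 0 to 7 for Cre plus, with 0 in the other comparisons. Within batches, the members' median moved to 0.08 for genotype at 30 h in PHX3, to 0.13 and -0.10 for the interaction at 20 h in PHX2 and PHX3, and to -0.19 for the interaction at 40 h in PHX2. Probe sets near the background, as that of Ndufs4, limit what low signals can show.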
